A study of Oryza sativa Japonica Group with 6 samples.

Results

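The MYB loci described here are 9 of the 55801 loci, and 13 of the 66153 transcript models, in a table of RPKM, a read number scaled to transcript length and to the mapped reads of the library, from seedling shoots. Members were every row whose identifier, without its model number, was one of LOC_Os04g43680 (OsMYB4), LOC_Os03g20090 (OsMYB2), LOC_Os01g18240 (OsMYB61), LOC_Os01g34060 (MYBS1), LOC_Os10g41260 (MYBS2), LOC_Os10g41200 (MYBS3), LOC_Os01g74410, LOC_Os01g62410 and LOC_Os05g48010. The table holds locus identifiers only. The study's own tables pair OsMYB61 with its locus, the other 5 names are those in general use for these loci, and the remaining 3 loci are called by their identifiers. The locus number gives the chromosome, which is 1 for LOC_Os01g18240 and 10 for LOC_Os10g41200. Of these loci 6 have 1 model, and MYBS3, LOC_Os01g74410 and LOC_Os01g62410 have several.

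Wild-type Nipponbare seedlings were grown under continuous light, and RNA-seq was made from shoots in 3 conditions with 2 libraries each. Rehydrated seedlings, 11 days old, were given water for 24 h after 8 h of air-drying, dehydrated seedlings were taken at 10 days after the same 8 h, and control seedlings were untreated at 10 days. Shoots of 20 plants were pooled per library, and the study describes rehydrated shoots as a mixture of recovered and damaged leaf parts. Re-watering and the extra day of age go together in every rehydrated library and cannot be told apart, and in these bulk samples fewer cells of a type cannot be told from less RNA per cell.

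MYB transcription factors bind DNA through repeats that give the family its name, and many of those in plants respond to water, cold, hormones or sugar. OsMYB4 and OsMYB2 are known for the stress tolerance they give when overexpressed, in Arabidopsis and in rice. OsMYB61 acts in secondary wall formation and in nitrogen signaling. The 3 MYBS factors bind the sugar-response element of alpha-amylase promoters, where MYBS1 activates transcription when sugar is short and MYBS3 represses it, and MYBS3 is also known from the slow response to cold.

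The study tested OsMYB4 by qRT-PCR as well as by sequencing, and its primers, shown here because they mark the stretch of this transcript that was amplified, were the following 20-base oligonucleotides for a gene on chromosome 4.
OsMYB4 forward: gagcgaatcatcaagcagga
OsMYB4 reverse: tctgatgatccagtttgcac
The letters are in lower case throughout, as no part was singled out. The qRT-PCR values are not used here.

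The libraries held 10605084 to 12301262 mapped reads. At 1 RPKM or more there were 24020 and 24509 transcripts after rehydration, 20869 and 22402 after dehydration and 23755 and 24675 in the control. Markers of green shoot tissue, the models of 4 loci of photosynthesis and chlorophyll synthesis, had a summed RPKM of 9520 and 7443 after rehydration, 261 and 887 after dehydration and 12021 and 8531 in the control. Their 10 tested models were all lower after dehydration, and 9 were called lower by the test described below, where 13.4% of all tested transcripts were. Some of these loci are ones the study had picked as genes that fell on dehydration in these same libraries. The count is thus not independent of the choice of markers. The part of these markers in the results on the MYB loci was not tested. The control libraries also differed in the LEA-like protein LOC_Os05g46480_1, with 0.982 and 23.7 RPKM, against 2267 and 1209 after dehydration.

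All 13 models passed the filter of at least 1 RPKM in at least 2 of the 6 libraries and were tested with limma on log2(RPKM + 1) among 26790 transcripts. LOC_Os01g62410_2 passed it only through the dehydrated libraries, so its dehydration values had to be the higher ones. A model was called at a Benjamini-Hochberg adjusted p under 0.01 and a fold over 2, and log2 fold changes below are differences of mean log2(RPKM + 1), given with their standard errors (SE). Averages of RPKM are given with SD and n = 2 libraries. With 2 libraries in each group, the smallest two-sided p of an exact permutation test is 0.33, so none is given. The 3 comparisons share libraries and are not independent of each other.

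On dehydration, OsMYB4 and LOC_Os01g62410_1 rose and OsMYB61, MYBS2 and LOC_Os01g74410_2 fell. These 5 calls among 13 models are 38.5%, where 22.3% of all tested transcripts were called. In each direction, 2 models were higher and 3 lower, with 8.97% and 13.4% of all tested transcripts called. The median log2 fold change was 0.08 for the 13 models, -0.14 for the 12 without LOC_Os01g62410_2, whose direction the filter fixed, and -0.30 for all tested transcripts. Of the 9 loci, 7 had been listed by the study as MYB or MYB-related genes that differed in these same libraries, so the count is not independent of the choice of loci.

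**Figure D1:**
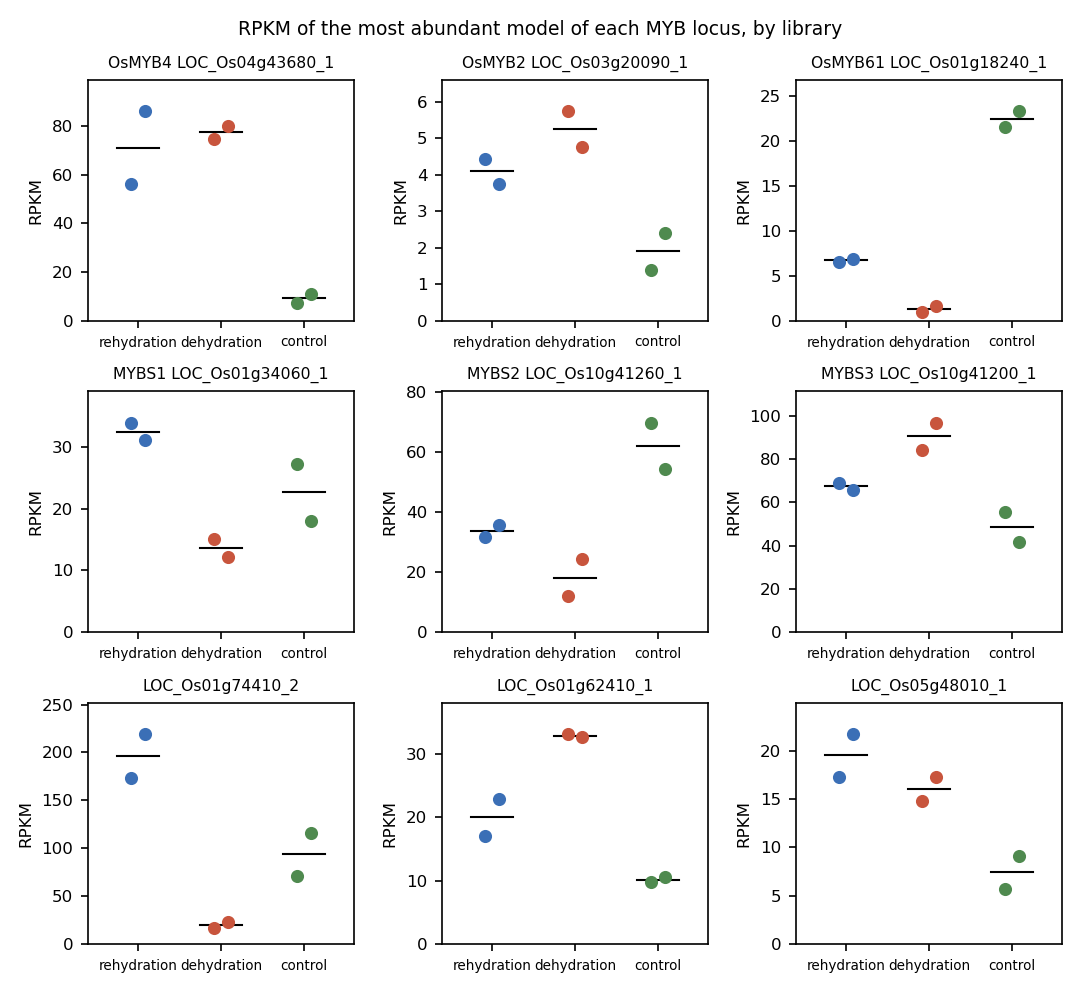
RPKM (linear axes from 0) of the most abundant model of each of the 9 MYB loci, with 1 point for each library and a bar at the mean of the 2 libraries of rehydrated, dehydrated and control shoots. OsMYB4 was above 56 RPKM in the 4 treated libraries and below 11 in the control, OsMYB61 was highest in the control, and LOC_Os01g74410_2 was highest after rehydration and lowest after dehydration.

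OsMYB4 was above the control after dehydration and again 24 h after re-watering. It had 56.0 and 85.9 RPKM after rehydration, 74.7 and 80.0 RPKM after dehydration and 7.47 and 10.98 RPKM in the control. Both treatments lay apart from the control, and the rehydrated libraries spanned the dehydrated ones. The means were 70.9 ± 21.1 after rehydration, 77.3 ± 3.79 after dehydration and 9.22 ± 2.48 in the control (SD, n = 2 each). Dehydrated shoots thus had 8.39 times and rehydrated shoots 7.69 times the control mean. For dehydration against control its log2 fold change was 2.96 (SE 0.27, limma adjusted p = 0.000983), and the call held when any 1 of the 6 libraries was left out.

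After rehydration OsMYB4 was the MYB model still called above the control, with a log2 fold change of 2.80 (SE 0.27, limma adjusted p = 0.00732). It was 1 of 13, where 0.847% of all tested transcripts were called in this comparison, 0.776% as higher and 0.0709% as lower. This call was lost with a pseudocount of 0.1 (limma adjusted p = 0.0115), without the filter (0.0205), without the trend on abundance (0.0157) and in a fit of the 4 libraries compared (0.0165). It was lost too without either dehydration replicate, in fits that still called other transcripts. Fits without a control or a rehydration library called no transcript at all in this comparison, so the loss there does not bear on OsMYB4. The estimate was 3.11 and 2.50 without rehydration replicate 1 or 2, 2.80 without either dehydration replicate, and 2.55 and 3.06 without control replicate 1 or 2. Rehydrated and dehydrated shoots differed by -0.15 on the log2 scale (95% interval -0.82 to 0.51, limma adjusted p = 0.718), an interval that spans both directions.

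OsMYB2, like OsMYB4 known for the stress tolerance it gives when overexpressed, was low in every library. It had 4.44 and 3.75 RPKM after rehydration, 5.73 and 4.75 RPKM after dehydration and 1.39 and 2.42 RPKM in the control. Both treatments lay above the control without overlap, and the dehydrated libraries lay above the rehydrated ones. Dehydration against control gave a log2 fold change of 1.12 (SE 0.30), which missed the threshold (limma adjusted p = 0.0253), and 0.83 (SE 0.30, adjusted p = 0.182) for rehydration against control. Its values rest on few reads, the smallest whole numbers that give its RPKM being 15 to 56 per library.

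OsMYB61 was the member with the strongest fall on dehydration. It had 6.59 and 6.83 RPKM after rehydration, 0.966 and 1.61 RPKM after dehydration and 21.5 and 23.3 RPKM in the control. No value of 1 condition overlapped with another, and rehydrated shoots lay between the others. Dehydrated shoots held 5.75% and rehydrated shoots 29.97% of the control mean of 22.4 ± 1.23 RPKM (SD, n = 2).

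For dehydration against control the log2 fold change of OsMYB61 was -3.37 (SE 0.24, limma adjusted p = 0.000568), a call that held without any 1 of the 6 libraries. Its rank by size of change was 918 among the 26790 transcripts. It was higher after rehydration than after dehydration, with a log2 fold change of 1.77 (SE 0.24, limma adjusted p = 0.00772). This second call was also made without dehydration replicate 2, at 1.97. The estimate was 1.56 without dehydration replicate 1, 1.79 and 1.75 without rehydration replicate 1 or 2 and 1.77 without either control replicate. Those other fits called no transcript at all in this comparison, so the loss of the call there does not bear on OsMYB61. The call was lost with a pseudocount of 0.1 (limma adjusted p = 0.011), without the filter (0.0161) and without the trend (0.0113). It was lost too in a fit of 4 libraries (0.0256), which called no transcript either. Against the control, rehydrated shoots were at -1.60 (SE 0.24), which missed the threshold (limma adjusted p = 0.0232). It passed in a fit of summed loci (0.00811), where this locus of 1 model keeps its values and fewer transcripts are tested.

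The MYBS factors had different patterns, although all bind the same kind of element. MYBS2 was lower after dehydration, MYBS1 had its lowest values there without passing the test, and the main model of MYBS3 had its highest values there without passing it. Whether the responses of the 3 factors differed from each other was not tested.

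MYBS1, the activator, had 33.8 and 31.1 RPKM after rehydration, 15.1 and 12.2 RPKM after dehydration and 27.2 and 18.0 RPKM in the control. The 3 conditions did not overlap, with rehydrated shoots highest and dehydrated shoots lowest. Rehydration against dehydration gave a log2 fold change of 1.19 (SE 0.24), past the fold but not the adjusted p (0.0217, limma). It passed both in a fit of summed loci (0.00977), where this locus of 1 model keeps its values and fewer transcripts are tested. Dehydration against control gave -0.67 (SE 0.24, limma adjusted p = 0.0704).

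MYBS2 had 31.8 and 35.9 RPKM after rehydration, 12.1 and 24.4 RPKM after dehydration and 69.8 and 54.6 RPKM in the control. Again the conditions did not overlap, but the dehydrated libraries differed by 2.02 times from each other, with replicate 1 the lower, as it was for the shoot markers. Dehydrated shoots held 29.4% of the control mean and rehydrated shoots 54.4%. Dehydration against control gave a log2 fold change of -1.78 (SE 0.33, limma adjusted p = 0.00792).

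Of the 5 calls on dehydration, that of MYBS2 was made in the fewest fits without 1 library. It was made again without dehydration replicate 2 (-2.26, limma adjusted p = 0.00247). It was lost without dehydration replicate 1 (-1.30, 0.0155), without control replicate 1 (-1.61, 0.0484) or 2 (-1.96, 0.0303), and without rehydration replicate 1 (-1.78, 0.0186) or 2 (-1.78, 0.0183). The same held with a pseudocount of 0.1 (limma adjusted p = 0.0116), without the filter (0.0167), without the trend (0.0128) and in a fit of 4 libraries (0.0171). After rehydration MYBS2 was at -0.85 (SE 0.33) against the control and at 0.93 (SE 0.33) against dehydration, neither of them called (limma adjusted p 0.219 and 0.095).

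MYBS3, the repressor, was among the more abundant members, and its main model LOC_Os10g41200_1 stood at the 94.9th percentile of mean level among tested transcripts. This model had 68.8 and 66.0 RPKM after rehydration, 84.3 and 96.7 RPKM after dehydration and 55.4 and 42.0 RPKM in the control. The conditions did not overlap, and dehydrated shoots were highest. In log2 fold change it was at 0.89 (SE 0.20) for dehydration against control, under the fold threshold (limma adjusted p = 0.0146), and 0.47 (SE 0.20, adjusted p = 0.249) for rehydration against control.

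The 2 minor models of MYBS3 did not follow the main one. LOC_Os10g41200_3 had 2.49 and 4.74 RPKM after rehydration, 17.1 and 7.52 RPKM after dehydration and 11.9 and 9.66 RPKM in the control. LOC_Os10g41200_2 had 0.888 and 1.93 RPKM after rehydration, 2.76 and 2.23 RPKM after dehydration and 3.42 and 3.52 RPKM in the control. Both were lowest after rehydration, with log2 fold changes against the control of -1.39 (SE 0.43, limma adjusted p = 0.136) for model 3 and -0.93 (SE 0.32, adjusted p = 0.173) for model 2, neither of them called.

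As a share of the summed RPKM of the MYBS3 locus, model 1 took 95.3% and 90.8% after rehydration, 81.0% and 90.8% after dehydration and 78.3% and 76.1% in the control. Model 3 took 3.45% and 6.53% after rehydration, 16.4% and 7.07% after dehydration and 16.8% and 17.5% in the control. Rehydrated and control libraries thus did not overlap in these shares, while dehydrated libraries differed widely from each other. How reads shared by models were divided is not given in the sources used here, so a shift between models can also be a shift in that division, which was not tested. The summed level of the locus was 72.2 and 72.6 RPKM after rehydration, 104 and 106 RPKM after dehydration and 70.7 and 55.1 RPKM in the control.

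**Figure D2:**
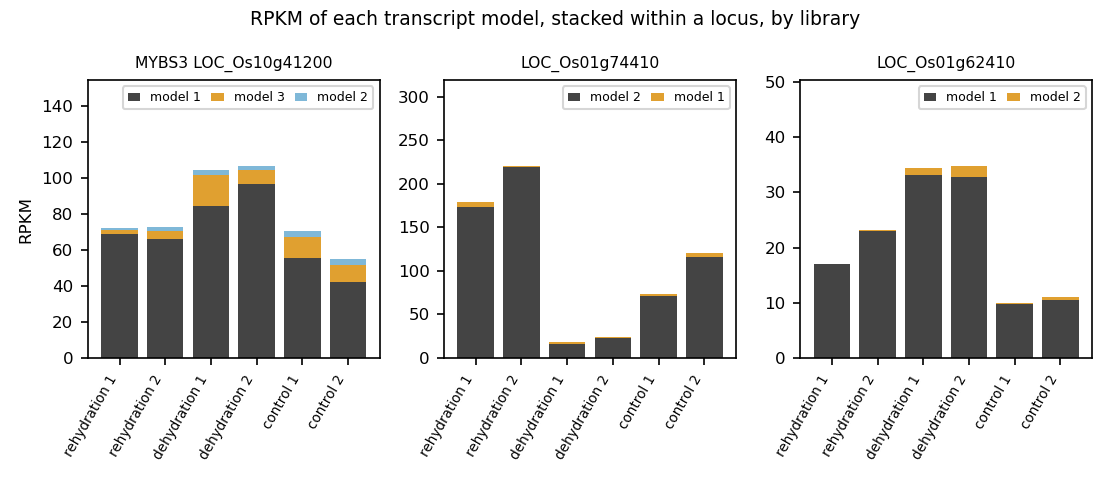
RPKM (linear axes from 0) of the transcript models of MYBS3, LOC_Os01g74410 and LOC_Os01g62410, stacked within each locus, with 1 bar for each of the 6 libraries. Model 3 of MYBS3 took up to 17.5% of the locus in the control and at most 6.53% after rehydration, and the other loci were dominated by 1 model in every library.

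LOC_Os01g74410, which the study annotates as a MYB family transcription factor, was the most abundant member and changed most between dehydration and rehydration. Model LOC_Os01g74410_2 had 174 and 219 RPKM after rehydration, 16.4 and 23.0 RPKM after dehydration and 71.2 and 116 RPKM in the control. The conditions did not overlap, and rehydrated shoots exceeded the control. Dehydrated shoots held 21.0% of the control mean, and rehydrated shoots held 209% of it and 9.96 times the level of dehydrated shoots.

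The log2 fold change of LOC_Os01g74410_2 was -2.17 (SE 0.30, limma adjusted p = 0.00302) for dehydration against control and 3.26 (SE 0.30, limma adjusted p = 0.00446) for rehydration against dehydration. Its rank by size of change in the comparison of rehydration with dehydration was 229 among 26790. Against the control, rehydrated shoots were at 1.09 (SE 0.30), past the fold but not the adjusted p (0.105, limma), so a level above the control was not called.

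Without control replicate 2 or dehydration replicate 1, the call of LOC_Os01g74410_2 on dehydration was lost (-1.82, limma adjusted p = 0.0159, and -1.94, 0.0152). The call on rehydration was made again without dehydration replicate 2, at 3.50. The estimate was 3.03 without dehydration replicate 1, 3.43 and 3.09 without rehydration replicate 1 or 2 and 3.26 without either control replicate. Those other fits called no transcript at all in this comparison, so the loss of the call there does not bear on this model. The log2 fold change on rehydration stayed above 3 in each of these fits. This call was also lost without the filter (limma adjusted p = 0.012) and in a fit of 4 libraries (0.0167), which called no transcript either.

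The other model of this locus, LOC_Os01g74410_1, was low and uneven. It had 5.98 and 1.25 RPKM after rehydration, 2.38 and 1.08 RPKM after dehydration and 2.27 and 4.02 RPKM in the control. The rehydrated libraries differed by 4.80 times and overlapped with both other conditions, and no comparison of this model was called. Model 2 made up 87.3% to 99.4% of the summed RPKM of the locus.

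LOC_Os01g62410_1, a further MYB family member, rose on dehydration and was intermediate after rehydration. It had 17.1 and 22.9 RPKM after rehydration, 33.1 and 32.7 RPKM after dehydration and 9.73 and 10.5 RPKM in the control. The conditions did not overlap, and the dehydrated libraries differed by only 1.01 times. Dehydrated shoots had 3.25 times and rehydrated shoots 1.97 times the control mean.

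The log2 fold change of LOC_Os01g62410_1 for dehydration against control was 1.61 (SE 0.20, limma adjusted p = 0.00224). It was 1.56 and 1.66 without control replicate 1 or 2 (adjusted p 0.0181 and 0.0149, limma) and 1.60 without dehydration replicate 1 (0.0119), and in these 3 fits the call was lost. Rehydrated shoots were at 0.90 (SE 0.20, limma adjusted p = 0.0633) against the control and at -0.71 (SE 0.20, adjusted p = 0.0543) against dehydration.

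Model LOC_Os01g62410_2 was near the limit of detection, with a value listed at 0 and 0.249 RPKM after rehydration, 1.31 and 2.00 RPKM after dehydration and 0.215 and 0.526 RPKM in the control. It took at most 5.75% of the summed RPKM of its locus. The smallest whole numbers of reads that give these values were 0 to 37 per library, and no comparison of this model was called.

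LOC_Os05g48010_1 was higher in both treatments than in the control without passing the test. It had 17.3 and 21.7 RPKM after rehydration, 14.8 and 17.2 RPKM after dehydration and 5.67 and 9.11 RPKM in the control. Each treated library lay above each control library, and rehydrated shoots lay just above dehydrated shoots. Its log2 fold change was 1.31 (SE 0.27, limma adjusted p = 0.0493) for rehydration against control and 1.05 (SE 0.27, adjusted p = 0.0223) for dehydration against control, so both passed the fold alone.

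Of the most abundant models of the 9 loci, 3 had their highest mean after rehydration, 4 after dehydration and 2 in the control. The models called on rehydration against dehydration were OsMYB61 and LOC_Os01g74410_2, both higher, which is 2 of 13 where 5.33% of all tested transcripts were called and 4.32% were called higher. LOC_Os01g62410_2 is left out of the counts of groups that lay apart, since the filter fixed its direction. The groups did not overlap between dehydration and control for 10 of the other 12 models, 5 of them higher and 5 lower after dehydration, while 28% and 45.8% of all tested transcripts lay apart in these directions. Between rehydration and control 7 models lay apart as higher and 4 as lower, against 26.9% and 26% of all tested transcripts. Between rehydration and dehydration 5 lay apart as higher and 5 as lower, against 43% and 22.7%.

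At an adjusted p under 0.05 with the same fold, 7 of the same 12 models were called on dehydration, where 36.3% of all tested transcripts were. There were 3 for rehydration against control, where 4.91% were called, and 3 for rehydration against dehydration, where 18.7% were called. OsMYB2 and LOC_Os05g48010_1 were the models added on dehydration at this threshold, both higher.

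**Figure D3:**
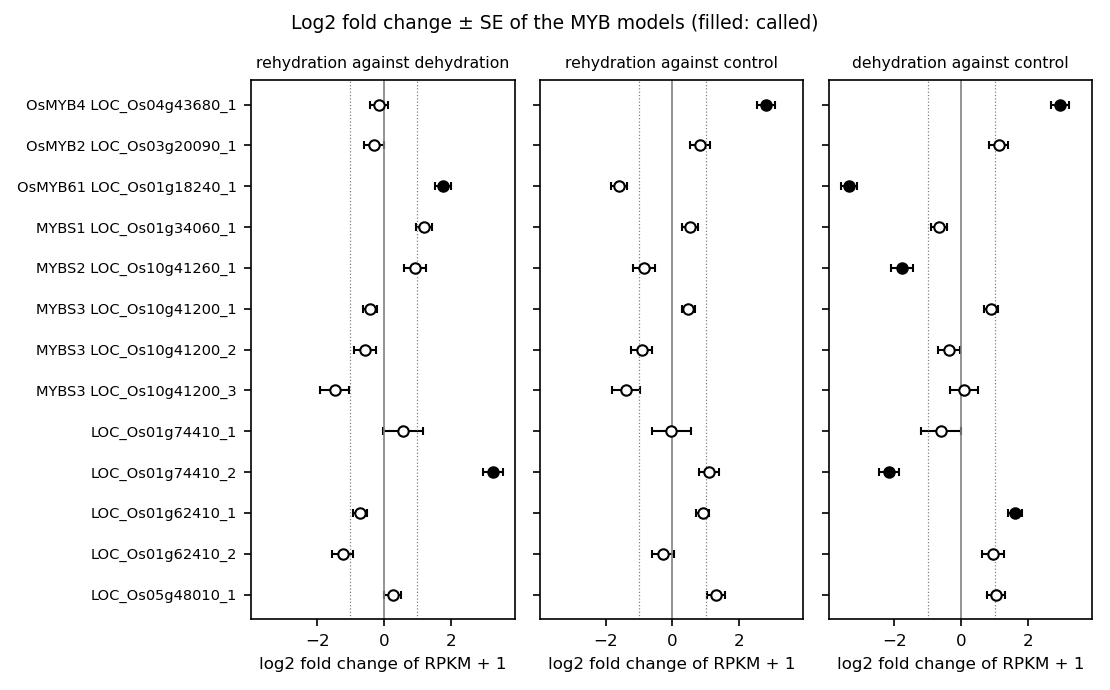
Log2 fold change of RPKM + 1 (x axis) with its SE for the 13 MYB models (rows) in 3 comparisons, where filled points passed the test and dotted lines mark a fold of 2. The 5 models called on dehydration, at 2.96 (OsMYB4), 1.61 (LOC_Os01g62410_1), -1.78 (MYBS2), -2.17 (LOC_Os01g74410_2) and -3.37 (OsMYB61), are spread on both sides of 0.

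The study lists 48 further loci as MYB or MYB-related genes that differed in these libraries, a choice made on the same samples and so no independent evidence. Of their 59 tested models, 17 were called higher and 20 lower on dehydration, where 8.97% and 13.4% of all tested transcripts were. After rehydration 3 were called higher and 0 lower than in the control, where 0.776% and 0.0709% of all tested transcripts were, and 8 were called higher and 0 lower than after dehydration, where 4.32% and 1.01% were. Their median log2 fold change on dehydration was 0.54, against -0.30 for all tested transcripts.

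The largest changes among these MYB genes on dehydration were in LOC_Os01g64360_1, at 5.64 (SE 0.27, limma adjusted p = 0.000363), LOC_Os05g37060_1, at 5.43 (SE 0.33, adjusted p = 0.000426), and LOC_Os05g50340_1, at -4.41 (SE 0.82, adjusted p = 0.00789). LOC_Os01g64360_1 had 47.6 and 80.8 RPKM after rehydration, 149 and 169 RPKM after dehydration and 2.42 and 2.01 RPKM in the control. Like OsMYB4, it was called above the control after rehydration, at 4.30 (limma adjusted p = 0.00273).

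A further list came from published microarray data on hormone responses that the study reanalysed. Of 5 loci annotated as MYB genes among those that responded to ABA, 4 also stand in the study's list of MYB genes that differed here, so this list too is only partly independent. LOC_Os06g43090_1 was called on dehydration, at 1.93 (SE 0.36, limma adjusted p = 0.00768). That was 1 of 7 tested models, or 14.3%, where 22.3% of all tested transcripts were called, and 0 were called in the comparisons of rehydration with control and with dehydration, where 0.847% and 5.33% were.

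A set of 12 loci of stress hormone, sugar and nitrogen response that the study's tables annotate was read beside the MYB factors, since ABA synthesis, LEA proteins, alpha-amylases and glutamine synthetases act in the same responses. Of these, 6 are annotated in the hormone microarray lists and 6 only in tables that the study filled with genes that differed in these libraries, so their counts are not independent evidence either. Of their 15 tested models, 9 were called higher and 2 lower on dehydration, which is 73.3% where 22.3% of all tested transcripts were called. After rehydration 3 were called higher and 0 lower than in the control, where 0.847% of all tested transcripts were called, and 0 were called higher and 2 lower than after dehydration, where 5.33% were. Their median log2 fold change on dehydration was 2.80, against -0.30 for all tested transcripts.

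NCED3 (LOC_Os07g05940_1), an enzyme of ABA synthesis, had 59.8 and 80.4 RPKM after rehydration, 123 and 126 RPKM after dehydration and 0.303 and 0.330 RPKM in the control. Like OsMYB4, it rose on dehydration (log2 fold change 6.57, limma adjusted p = 0.000144) and was still called above the control after rehydration (5.74, adjusted p = 0.000784). The putative dehydration-responsive element-binding protein LOC_Os06g03670_1 and the PP2C LOC_Os09g15670_1 were called in the same 2 comparisons, at 5.43 and 5.47 on dehydration and at 4.73 and 4.12 after rehydration. LOC_Os06g03670_1 was the 1 model called among 3 tested models of such element-binding proteins (DREB1), whose median on dehydration was -0.82. Other models rose on dehydration and were not called above the control after rehydration. Among them were those of the LEA-like protein LOC_Os05g46480, of the AP2 factor LOC_Os01g07120 and of NCED1 (LOC_Os03g44380_1), at 2.77 to 7.89 on dehydration. After rehydration these models were still at 1.24 to 6.25 against the control, past the fold but not the adjusted p (0.0141 to 0.0378, limma).

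Alpha-amylase 3D (LOC_Os08g36910_1), a sugar-repressed enzyme of starch breakdown, had 1.25 and 1.21 RPKM after rehydration, 19.1 and 8.66 RPKM after dehydration and 0.0614 and 0.267 RPKM in the control. It rose on dehydration (log2 fold change 3.59, SE 0.40, limma adjusted p = 0.00167), in the shoots where MYBS1 and MYBS2 had their lowest levels and the main model of MYBS3 its highest. Any link with the MYBS factors was not tested. Of 4 tested alpha-amylase models, 2 were called higher on dehydration and 0 lower, where 8.97% and 13.4% of all tested transcripts were. Besides alpha-amylase 3D, the called model had 2.04 and 3.80 RPKM after dehydration and values listed at 0 in all other libraries. That model passed the filter only through the dehydrated libraries, so its direction was fixed and its call adds no evidence. The patterns differed, as LOC_Os06g49970_2, not called, had 5.15 and 4.66 RPKM after rehydration and 4.98 and 3.13 RPKM after dehydration. The difference of alpha-amylase 3D between rehydration and dehydration was -2.64 (adjusted p = 0.0101), which just missed the threshold.

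Glutamine synthetase OsGS2 (LOC_Os04g56400_1), the plastid enzyme of nitrogen assimilation, had 811 and 650 RPKM after rehydration, 101 and 209 RPKM after dehydration and 1126 and 791 RPKM in the control. Like OsMYB61 it fell on dehydration (log2 fold change -2.69, SE 0.40, limma adjusted p = 0.0038), as did its minor model LOC_Os04g56400_3 (-2.48, adjusted p = 0.00239). Its level after rehydration differed from the control by -0.38 (adjusted p = 0.671). OsGS1.2 (LOC_Os03g12290_1), the cytosolic enzyme, had 27.9 and 22.8 RPKM after rehydration, 9.55 and 10.2 RPKM after dehydration and 10.2 and 12.6 RPKM in the control, with no comparison called. Rehydrated shoots were at 1.27 against dehydration (limma adjusted p = 0.012) and 1.09 against control (0.0425), past the fold alone. The study, with edgeR on the same libraries, reported this gene as specifically raised by rehydration.

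Transcripts with the pattern closest to 3 of the members were found by the Euclidean distance of log2(RPKM + 1), centred on its mean, over the 6 libraries. The closest to OsMYB4 were LOC_Os12g05440_1, annotated as a cytochrome P450, at a distance of 0.334, the NAC factor LOC_Os12g03050_1 at 0.371 and LOC_Os08g31860_1 at 0.396. Those closest to OsMYB61 were LOC_Os03g18300_1 at 0.262, LOC_Os10g16974_1 at 0.294 and LOC_Os05g05690_1 at 0.332. For LOC_Os01g74410_2 they were LOC_Os04g30250_2 at 0.593, LOC_Os06g40640_4 at 0.715 and LOC_Os04g37820_1 at 0.747.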

How the data were processed

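RNA-seq libraries from 6 pools of 20 Nipponbare shoots were analysed, 2 each for rehydration, dehydration and control. The authors made stranded mRNA libraries, sequenced paired ends of 75 bases (MiSeq), aligned the trimmed reads to the rice genome (MSU annotation) allowing 1 mismatch in CLC Genomics Workbench and deposited RPKM per transcript model and library from the same program. No scaling between libraries beyond RPKM is stated, and replicates were not pooled. The RPKM were multiplied by the mapped reads that the study gives per library, and for 400 of 400 sampled transcripts of single-model loci and all 13 members a length was found that gives whole reads (within 0.01) in all 6 libraries. Those lengths can be fractions of the true ones, so the read numbers are minimums.

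A pseudocount of 1 was added before the log2. Transcripts reaching 1 RPKM in 2 or more libraries were fitted by limma (version 3.58.1, under R 4.3.3) with a trend on abundance, in 1 fit of 3 groups with 3 residual degrees of freedom. The authors' own test was edgeR, which needs read counts. Their thresholds were kept (fold above 2, Benjamini-Hochberg adjusted p below 0.01). The procedure was tested on simulated data. The libraries are biological replicates by their labels, and 0 pairs of libraries held identical values. Tables were handled with Python 3.11.15 and pandas 2.3.3.

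The members and lists were chosen with earlier results of these data known. The text names every model of the 9 loci, list members that passed the test (in the longest list the 3 with the largest change on dehydration) and, for 3 members, the nearest patterns. Shoot markers are given as a sum and a count and are not named singly. Listed loci that no source used here annotates were left out of the text. Some further list members that did not pass the test are given with their values for comparison.
Alternatives were another pseudocount, no filter, another scaling, a replicate block, 4 libraries per fit, no trend, an adjusted p under 0.05, summed loci and leaving out each library.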

Additional observations from a re-analysis of the deposited data

How the results depend on the processing

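Directions were kept by every tested model under the alternatives other than leaving out a library. The members called on dehydration numbered 5, against 4 to 7 under those alternatives and 2 to 5 without any 1 library. The 1 call for rehydration against control became 0 with a pseudocount of 0.1, without the filter, without the trend and in a fit of 4 libraries, 3 at an adjusted p under 0.05 and 2 with summed loci, and was 0 without any 1 library. The 2 calls for rehydration against dehydration became 1 with a pseudocount of 0.1 and without the trend, 0 without the filter and in a fit of 4 libraries, 3 with summed loci and 4 at an adjusted p under 0.05 (3 without LOC_Os01g62410_2, whose direction the filter fixed), and were 0 to 2 without any 1 library. Fits without a library have fewer residual degrees of freedom, so a lost call there does not show that it rests on that library. Several of them called no transcript at all in the comparisons with rehydrated shoots, so the call of any member was bound to be lost there.

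Over all transcripts, 5987, 227 and 1427 were called for dehydration against control, rehydration against control and rehydration against dehydration. These were 4028, 53 and 10 without the filter, 4042, 97 and 0 in fits of 4 libraries, 5176, 142 and 702 with a pseudocount of 0.1, 5536, 98 and 565 without the trend, 7124, 609 and 3036 with summed loci, and 9719, 1316 and 5008 at an adjusted p under 0.05. Without 1 library they were 1097 to 4508, 0 to 129 and 0 to 1482.

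A set of 6 values that were not called changed sign. The log2 fold change of LOC_Os10g41200_3 on dehydration was -0.06 without control replicate 2 and -0.46 without dehydration replicate 1. That of LOC_Os01g74410_1 for rehydration against control was 0.28 without control replicate 2 and 0.78 without rehydration replicate 2, and for rehydration against dehydration -0.24 without rehydration replicate 1. OsMYB4 (LOC_Os04g43680_1) was at 0.15 for rehydration against dehydration without rehydration replicate 1. Over the fits without 1 library these estimates ran from -0.46 to 0.62 for LOC_Os10g41200_3, and for LOC_Os01g74410_1 from -0.85 to 0.78 against control and from -0.24 to 1.40 against dehydration. The cause was not tested.

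Deviations of replicates with the same number correlated at 0.06 (dehydration and control), 0.13 (rehydration and control) and 0.20 (rehydration and dehydration) over 26790 transcripts, and the labels do not say that numbers pair pools, so no pairing was used. With the replicate block, 6, 1 and 2 members were called, and the added one was LOC_Os05g48010_1 on dehydration (1.05, adjusted p = 0.00954). Upper-quartile scaling moved the median of all transcripts to -0.24, -0.09 and 0.11, from -0.30, -0.00 and 0.24, and kept the 5, 1 and 2 calls.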
